A study of Homo sapiens with 12 samples.

Results

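DNA-PK and the factors that join broken DNA ends were measured as RNA in an Ewing sarcoma line and a colorectal carcinoma line after knockdown of the gene of its catalytic subunit, PRKDC. The set was fixed by gene name and holds 10 genes: PRKDC, XRCC5, XRCC6, XRCC4, LIG4, NHEJ1, DCLRE1C, PAXX, POLL and POLM. They were read through every probe annotated to them on the Illumina HumanHT-12 v4 array, 18 of 47322 probes, among 20046 genes with a probe. Of the 18, 11 probes, from 7 genes, were detected well enough to be tested, among 16555 such probes in all. A probe counted as detected on an array where its detection p-value was under 0.05, and it was kept when all 3 arrays of some group detected it. XRCC4, NHEJ1 and POLL had no kept probe.

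The 4 groups held 3 samples each. They were TC32 cells, an Ewing sarcoma line, with siPRKDC, TC32 with siNeg, HCT116 cells, a colorectal carcinoma line, with siPRKDC, and HCT116 with siNeg. Both siRNAs were used at 20 nM, and total RNA was taken 48 h after transfection. siNeg is the control siRNA, so the control cells had been transfected too. TC32 was grown in RPMI-1640 and HCT116 in DMEM, so the line and the medium cannot be told apart. The labels do not say whether replicates came from separate cultures, and the p-values therefore reflect only how far these samples vary, a spread that may be technical.

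Non-homologous end joining closes double-strand breaks without a template. The Ku dimer of XRCC5 and XRCC6 threads onto a broken end and recruits the kinase encoded by PRKDC, and the assembly is called DNA-PK. Artemis (DCLRE1C) trims ends, the polymerases lambda (POLL) and mu (POLM) fill gaps, and ligase IV (LIG4) with its partner XRCC4 seals the break, held in place by XLF (NHEJ1) and PAXX. The same pathway joins antigen receptor gene segments in lymphocytes.

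The arrays and the labels were checked before the genes were compared. Each array detected between 15396 and 18153 probes, with 15396 to 16216 in TC32 with siPRKDC, 16324 to 16603 in TC32 with siNeg, 17101 to 18153 in HCT116 with siPRKDC and 17658 to 17740 in HCT116 with siNeg. Of 12 Ewing sarcoma markers, 11 had a probe. Their summed background-corrected intensity ran from 2820 to 2950 in TC32 with siPRKDC and from 2290 to 2340 in TC32 with siNeg, against 130 to 145 in HCT116 with siPRKDC and 117 to 129 in HCT116 with siNeg. NKX2-2 was detected on every TC32 array and no HCT116 array, but GLI1 was detected on no TC32 array. CD99 and STEAP1 were detected on every array of both lines. The summed intensity of 13 colon epithelial markers ran from 213 to 243 in TC32 with siPRKDC and from 573 to 641 in TC32 with siNeg, against 3870 to 4480 in HCT116 with siPRKDC and 3110 to 3420 in HCT116 with siNeg. Among them, EPCAM, CDH1, KRT8 and KRT19 were detected on every HCT116 array and no TC32 array, VIL1 and CEACAM5 on no array, and CEACAM6 on every TC32 array and no HCT116 array. In TC32 CEACAM6 made up most of the sum. Its mean log2 level there was 7.68 with siPRKDC and 9.2 with siNeg, while no other colon marker averaged above 4.87. Probes of ribosomal, spliceosomal and other structural RNAs, a sign of RNA quality and yield, moved with the siRNA. Of 18 kept, 16 were higher with siPRKDC in TC32 (median log2 change 1.44) and 6 in HCT116 (0.22).

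PRKDC itself is the targeted gene. Its brightest probe, ILMN_1769517, fell in both lines. In TC32, its deposited intensity was 89.3, 87.3 and 104.2 with siPRKDC, against 147.7, 141.4 and 162.3 with siNeg. In HCT116 it was 77.3, 78.3 and 86 with siPRKDC, against 238.1, 236.7 and 204.4 with siNeg. The siPRKDC samples lay below the siNeg samples in both lines without overlap, and the HCT116 siPRKDC samples came close to the array medians of 72.4 to 74.6, although the probe was still detected on all 12 arrays.

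**Figure D1:**
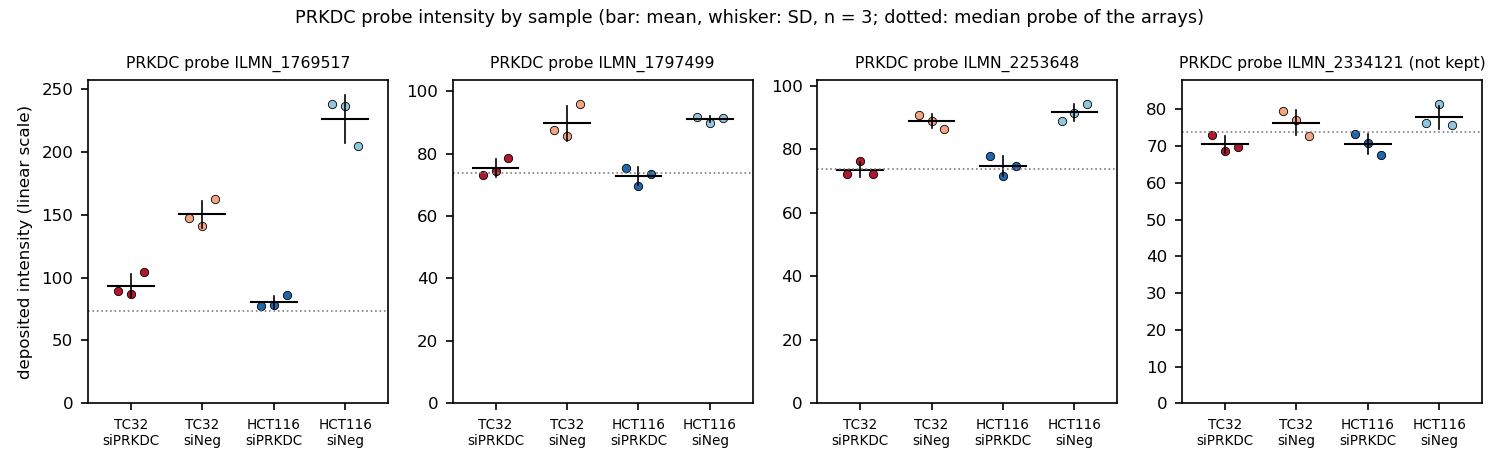
Deposited intensity of the 4 PRKDC probes in each of the 12 samples, on a linear scale, with a bar for the mean and a whisker for the SD of 3 samples and a dotted line at the median probe of the arrays. The brightest probe separates all 4 groups by its mean, whereas the other 3 lie near the dotted line with siPRKDC in both lines.

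After background correction and quantile normalization, the log2 level of this probe averaged 5.30 ± 0.32 in TC32 with siPRKDC and 6.71 ± 0.17 in TC32 with siNeg (SD, n = 3 each). The log2 change was -1.41 (SE 0.14, adjusted p = 7.33e-08), a 2.65-fold fall. In HCT116 the level averaged 4.59 ± 0.17 with siPRKDC and 7.25 ± 0.19 with siNeg (SD, n = 3 each), a log2 change of -2.66 (SE 0.14, adjusted p = 1.6e-10) and a 6.31-fold fall. In HCT116 no kept probe on the array fell further, while in TC32 the fall ranked 82 among 16555. On the background-corrected linear scale, the mean signal left was 27% in TC32 and 6.03% in HCT116. Without background correction the log2 changes were -0.75 in TC32 and -1.38 in HCT116, both called.

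For this probe the effect in TC32 minus that in HCT116 was 1.25 in log2 units (95% interval 0.84 to 1.66, adjusted p = 7.24e-05), and 0.64 without background correction. The 4 groups stood in the order HCT116 with siNeg, TC32 with siNeg, TC32 with siPRKDC and HCT116 with siPRKDC from high to low, and every neighbouring pair was called different. Under siNeg, TC32 lay 0.55 below HCT116, with a log2 difference of -0.55 (SE 0.14, adjusted p = 0.00187). Under siPRKDC, TC32 lay above HCT116, with a log2 difference of 0.70 (SE 0.14, adjusted p = 1.65e-04). The order thus turned round between the siRNAs.

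The other PRKDC probes were dim, and with siPRKDC each was detected on at most 1 of 3 arrays in either line, so they give no order of the lines there. ILMN_1797499 and ILMN_2253648 were kept only through the siNeg groups, where all 3 arrays detected them. Their siNeg level was thus part of what let them pass, and their calls are not independent of the filter. ILMN_1797499 read 73, 74.5 and 78.6 in TC32 with siPRKDC and 87.6, 85.5 and 95.9 with siNeg. It read 75.4, 69.6 and 73.6 in HCT116 with siPRKDC and 91.7, 89.9 and 91.4 with siNeg. It fell by 0.86 on the log2 scale in TC32 (adjusted p = 4.01e-06), where 1 of 3 siPRKDC arrays detected it, and at least 1.59-fold in HCT116, where no siPRKDC array detected it (adjusted p = 6.17e-05). A fold with "at least" is taken over the detection floor, the lowest normalized value among the detected probes of each array.

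ILMN_2253648 read 72.3, 76.4 and 72.1 in TC32 with siPRKDC and 90.9, 89 and 86.5 with siNeg, and 77.8, 71.7 and 74.9 in HCT116 with siPRKDC and 89, 91.6 and 94.3 with siNeg. It fell at least 1.69-fold in TC32 (adjusted p = 4.66e-07), where no siPRKDC array detected it, and by 0.73 on the log2 scale in HCT116 (adjusted p = 4.56e-05), where 1 of 3 did. Because the detection floor limits the siPRKDC level of both probes in both lines, they do not measure a difference between the effects. Under siNeg the dim probes showed TC32 minus HCT116 differences of 0.17 (adjusted p = 0.194) and 0.12 (adjusted p = 0.314), neither of them called and both below 0 with median scaling (-0.01 and -0.06). With the mean of the kept PRKDC probes in place of the brightest, the difference between the effects was 0.33 and was not called (adjusted p = 0.0596), a mean that includes the floor-limited values, and that under siNeg was -0.08 (adjusted p = 0.43). The probe ILMN_2334121 was not kept, being detected on 2 of 3 TC32 siNeg arrays, on 1 of 3 HCT116 siNeg arrays and on no siPRKDC array. Its mean intensity was 70.5 in TC32 with siPRKDC and 76.4 with siNeg, and 70.6 in HCT116 with siPRKDC and 77.9 with siNeg. In bulk RNA, fewer cells that hold a transcript and less of it per cell cannot be told apart.

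Across the 12 arrays, the genes whose pattern was most like that of the brightest PRKDC probe were RFC4, KLHL12, SRF, CYB5R3 and MGME1, with Pearson r between 0.966 and 0.979 among 13393 single-gene probes compared. The arrays fall into 4 groups that share line and siRNA, so r describes the group means more than the single samples. These genes were picked because they followed that probe on the same arrays. A fall in both lines was thus part of the choice, and the adjusted p-values given for them are descriptive only. RFC4, a subunit of the clamp loader used in DNA replication, had log2 changes of -0.50 in TC32 (adjusted p = 1.32e-04) and -0.80 in HCT116 (adjusted p = 2.17e-06). KLHL12, an adaptor of a ubiquitin ligase, had changes of -0.76 in TC32 (adjusted p = 5.14e-07) and -1.23 in HCT116 (adjusted p = 3.09e-09). The transcription factor gene SRF had changes of -0.40 in TC32 (adjusted p = 0.00382) and -1 in HCT116 (adjusted p = 7.76e-07).

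Apart from PRKDC, the 8 kept end-joining probes had small measured changes with the siRNA. XRCC4, NHEJ1 and POLL had no kept probe and could not be tested. Of the 11 kept probes, 4 were called in TC32, where 37.8% of all kept probes were called, and 3 in HCT116, where 14.8% were. PRKDC gave 3 of the calls in each line, with its dim probes kept only through the siNeg groups. The remaining 8 probes gave 1 call in TC32, the rise of PAXX, beside 37.8% of all kept probes. They gave none in HCT116, beside 14.8%, and none for the difference between the effects, beside 26.9%. With 8 probes, a difference from these shares was not tested. The log2 changes of the 8 probes lay between -0.28 and 0.30 in TC32 and between -0.08 and 0.25 in HCT116. The 95% intervals of those not called reached from -0.56 to 0.48 in TC32 and from -0.33 to 0.47 in HCT116. LIG4, POLM and DCLRE1C ILMN_1754211 lay near the detection floor, which limits how far their values can fall. Their intervals therefore do not bound the change in their RNA. The median change of the 8 probes was 0.11 in TC32 and 0.04 in HCT116, beside 0.01 and 0.00 over all kept probes. With LIG4 in TC32 at its bound over the detection floor, the TC32 median was 0.08.

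**Figure D2:**
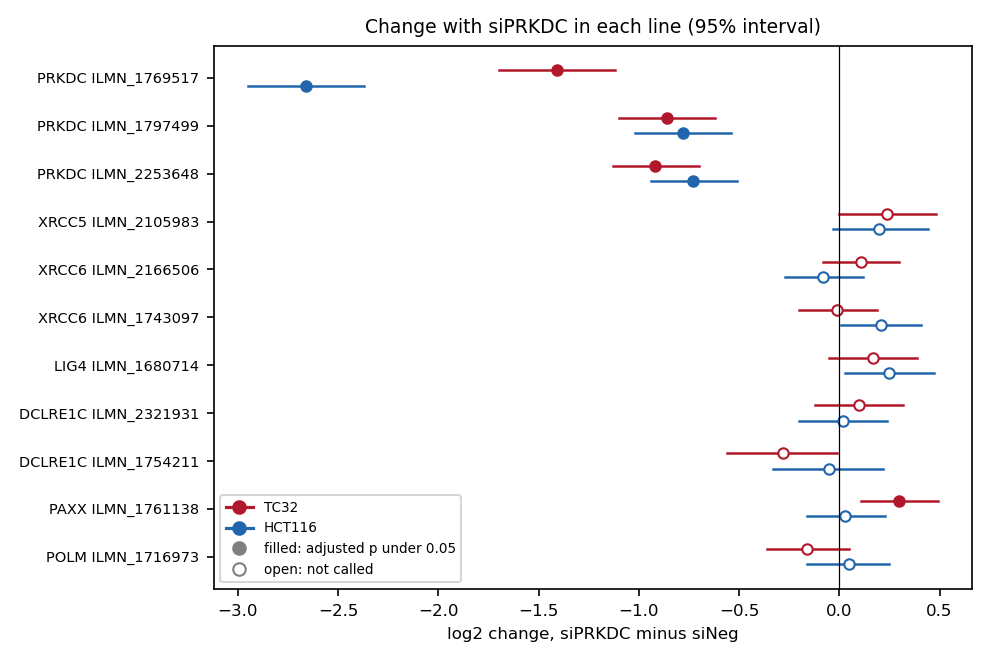
Log2 change, siPRKDC minus siNeg, of the 11 kept end-joining probes in TC32 and HCT116, with 95% intervals and filled points for adjusted p under 0.05; measured values are drawn also where a group was not detected. The 3 PRKDC probes lie between -2.66 and -0.73, and PAXX in TC32, at 0.30, is the other filled point.

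The Ku genes were lower in TC32 than in HCT116 and showed no called change with the siRNA. XRCC6, which encodes Ku70, had the brightest probe of the set, ILMN_2166506. It read 505, 506.2 and 507.5 in TC32 with siPRKDC and 446.2, 473.9 and 459.2 in TC32 with siNeg. In HCT116 it read 925.8, 868.4 and 940.9 with siPRKDC and 1132.6, 946.9 and 974.2 with siNeg. All TC32 samples lay below all HCT116 samples. The deposited intensities of the siRNAs did not overlap in either line, being higher with siPRKDC in TC32 and lower with it in HCT116. The normalized values overlapped in both lines.

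On the normalized log2 scale, XRCC6 averaged 8.78 ± 0.11 in TC32 and 9.82 ± 0.09 in HCT116 with siNeg (SD, n = 3 each), a difference of -1.04 (SE 0.09, adjusted p = 2.53e-09), 2.05-fold lower in TC32. With siPRKDC the difference was -0.85 (SE 0.09, adjusted p = 5.33e-08). The other XRCC6 probe, ILMN_1743097, differed by -0.70 with siNeg (adjusted p = 1.23e-06) and by -0.92 with siPRKDC (adjusted p = 2.22e-08). The siPRKDC changes of the brighter probe were 0.11 in TC32 (95% interval -0.08 to 0.30, adjusted p = 0.398) and -0.08 in HCT116 (95% interval -0.27 to 0.12, adjusted p = 0.658). The dimmer probe had a change of 0.21 in HCT116 without overlap between the siRNAs, in a comparison where the values of 32.5% of all kept probes did not overlap. It was not called (adjusted p = 0.154), but it was called on the authors' deposited log2 values (0.18, adjusted p = 0.0224) and without background correction (0.17, adjusted p = 0.0352). XRCC6 has processed copies in the genome, and the probe of one of them, XRCC6P5, was detected on 0 of 12 arrays.

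XRCC5, which encodes Ku80, was measured by 1 probe, ILMN_2105983. It read 148.4, 168.7 and 154.8 in TC32 with siPRKDC and 135.4, 148.4 and 133.7 in TC32 with siNeg. It read 208, 177.9 and 201.2 in HCT116 with siPRKDC and 185.6, 168.5 and 203.9 in HCT116 with siNeg. The TC32 values overlap between the siRNAs, as do the HCT116 values. TC32 was lower than HCT116 by a log2 difference of -0.34 with siNeg (SE 0.11, adjusted p = 0.0133) and of -0.31 with siPRKDC (SE 0.11, adjusted p = 0.0249). The first call was lost without TC32 siNeg replicate 1 (adjusted p = 0.0658), TC32 siNeg replicate 3 (0.0505) or HCT116 siNeg replicate 3 (0.0893). The second was lost without TC32 siPRKDC replicate 1 (0.0761) or 3 (0.0778) or HCT116 siPRKDC replicate 1 (0.138), and with no filter on dim probes (0.0733). The siPRKDC change in TC32 was 0.24 (95% interval 0.00 to 0.48, adjusted p = 0.108), and it passed without TC32 siNeg replicate 2 (0.35, adjusted p = 0.0323). In HCT116 it was 0.20 (95% interval -0.03 to 0.44, adjusted p = 0.266).

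The promoter window of XRCC6 is shown because its RNA differed most between the lines. The windows printed here are RefSeq sequences on GRCh38.p14 and run from 250 bases before to 50 after a gene's annotated start, 5′ to 3′ on the gene's strand. Of the 10 genes, 8 had a window, and XRCC5 and PRKDC had none. Capitals mark matches on either strand to 5 words: the ETS word CCGGAAG, the GC box GGGCGG, the cyclic AMP element word TGACGT, the NRF1 core GCGCATGCG and the word GGAA repeated 3 times in a row, the kind of repeat that the EWS-FLI1 fusion protein of Ewing sarcoma is known to bind. No match of different words overlapped another. The XRCC6 window, chr22:41621045-41621344 on the + strand, held 3 GC boxes, 2 cyclic AMP element words and 1 NRF1 core, with no match to the others. Of all 35116 windows in the table, 45% hold a GC box, 7.98% the cyclic AMP element word and 1.92% the NRF1 core.
XRCC6: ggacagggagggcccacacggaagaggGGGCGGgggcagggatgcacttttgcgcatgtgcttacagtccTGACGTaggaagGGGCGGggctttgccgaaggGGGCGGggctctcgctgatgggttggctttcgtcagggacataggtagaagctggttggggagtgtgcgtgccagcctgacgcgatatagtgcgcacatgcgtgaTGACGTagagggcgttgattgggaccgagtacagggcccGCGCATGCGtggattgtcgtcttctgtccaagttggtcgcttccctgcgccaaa

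The ligation factors were near or below the detection limit except for PAXX. PAXX encodes a small XRCC4-like protein that binds Ku. Its probe ILMN_1761138 read 340.6, 344.2 and 339 in TC32 with siPRKDC, against 300.8, 272.3 and 267.9 in TC32 with siNeg. It read 315.4, 304.8 and 294 in HCT116 with siPRKDC, against 328, 314.4 and 304.8 in HCT116 with siNeg. In TC32 every siPRKDC sample lay above every siNeg sample, in a comparison where the groups did not overlap for 44.7% of all kept probes. In HCT116 they overlapped.

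PAXX rose in TC32 with a log2 level of 8.27 ± 0.06 with siPRKDC and 7.97 ± 0.06 with siNeg (SD, n = 3 each), a change of 0.30 (SE 0.09, adjusted p = 0.0138) or 1.23-fold. The call was lost without TC32 siNeg replicate 3 (adjusted p = 0.0505) or TC32 siPRKDC replicate 1 (0.0585). The structural RNA probes rose in the same samples, with array medians of 7.86 to 7.92 in TC32 with siPRKDC and 5.58 to 5.85 with siNeg on the log2 scale. Their part in the rise of PAXX was not tested. In HCT116 the PAXX change was 0.03 (95% interval -0.16 to 0.23, adjusted p = 0.871). The difference between the effects was 0.27 (95% interval -0.01 to 0.54) and was not called (adjusted p = 0.139), but it passed without background correction (0.22, adjusted p = 0.0312), with median scaling (0.41, adjusted p = 0.0329) and on the authors' deposited log2 values (0.22, adjusted p = 0.0359). With siPRKDC, PAXX was higher in TC32 than in HCT116 by 0.38 (SE 0.09, adjusted p = 0.00135), though not with median scaling (0.20, adjusted p = 0.081). With siNeg the difference was 0.11 (adjusted p = 0.314), and -0.20 with median scaling (adjusted p = 0.0754).

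The PAXX window, chr9:136992172-136992471 on the + strand, is shown because PAXX was the only member besides PRKDC called with the siRNA. It held 6 GC boxes and 1 ETS word, which 10.3% of all windows hold, and no match to the others. Its GC content was 75.7%, against 62% for the XRCC6 window.
PAXX: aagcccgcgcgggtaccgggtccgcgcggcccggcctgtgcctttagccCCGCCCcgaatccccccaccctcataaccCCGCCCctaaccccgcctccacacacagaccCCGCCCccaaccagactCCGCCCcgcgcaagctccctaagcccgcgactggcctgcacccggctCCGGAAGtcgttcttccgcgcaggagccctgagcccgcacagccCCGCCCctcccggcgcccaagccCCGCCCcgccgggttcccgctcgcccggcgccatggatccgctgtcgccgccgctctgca

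LIG4, the ligase gene, had 3 probes. ILMN_1680714 was kept because all 3 HCT116 siPRKDC arrays detected it, so its level there was part of what let it pass. It read 78.2, 75.3 and 78.4 in TC32 with siPRKDC and 73.1, 72.1 and 74.6 with siNeg, and 79.8, 78.6 and 85.1 in HCT116 with siPRKDC and 81.8, 73.8 and 75.5 with siNeg. These values are close to the array medians, and the normalized values overlapped between the siRNAs in both lines. In TC32, where no siNeg array detected it, the siPRKDC level was at least 1.05-fold higher, which was not called (adjusted p = 0.224). In HCT116 the log2 change was 0.25 (adjusted p = 0.132), which passed without HCT116 siNeg replicate 1 (0.35, adjusted p = 0.0454). The other LIG4 probes were detected on 1 and 0 of 12 arrays. XRCC4 read 62.1 to 78 and was detected on 1 of 12 arrays, and NHEJ1 read 66.5 to 75.1 and was detected on 0 of 12. At this signal over background, no change in XRCC4, NHEJ1 or the other LIG4 probes could be measured.

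**Figure D3:**
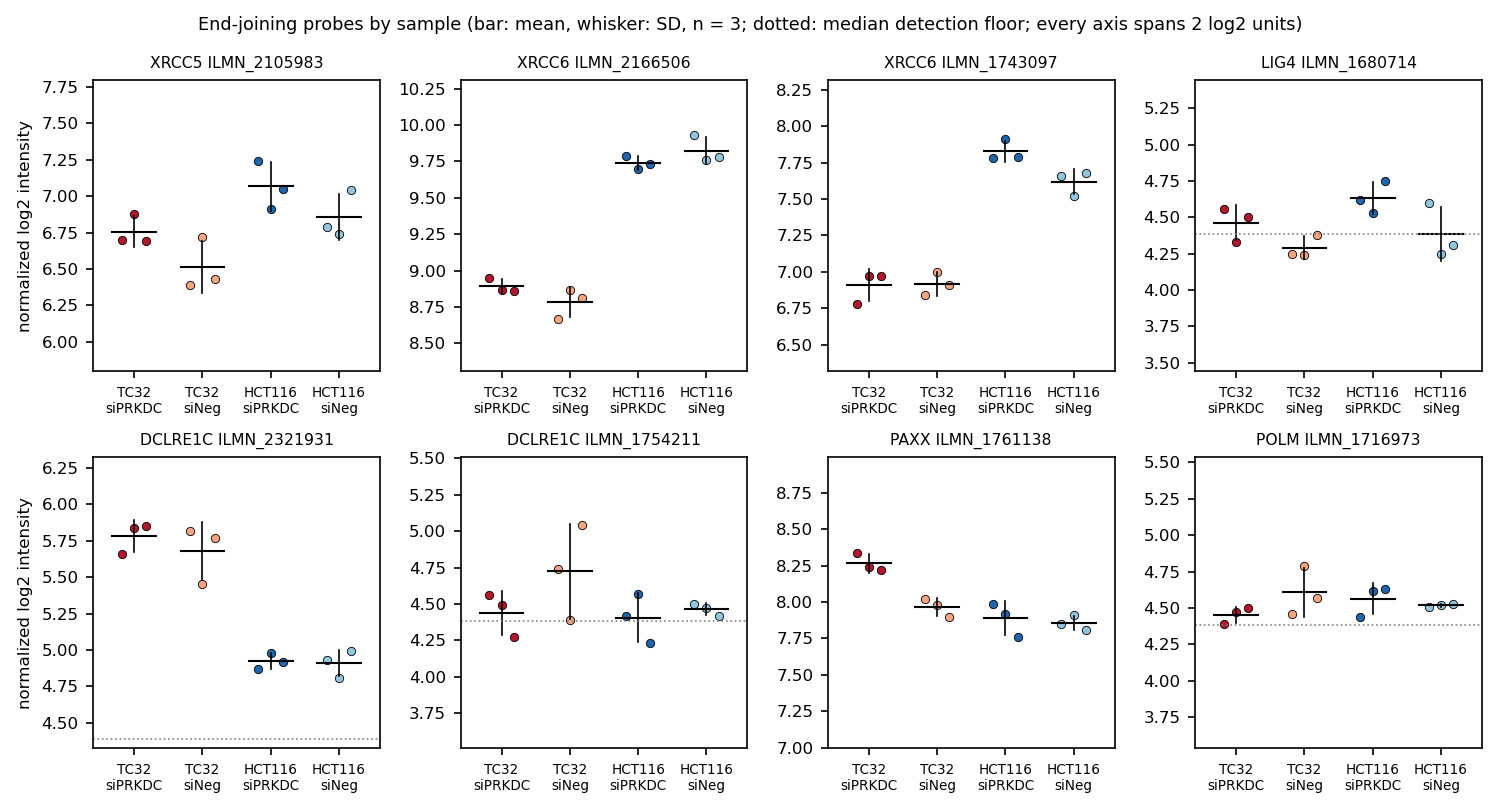
Normalized log2 intensity of the 8 kept probes other than those of PRKDC in each sample, with a bar for the mean and a whisker for the SD of 3 samples; the dotted line is the median detection floor and each panel spans the same range. XRCC6 and DCLRE1C ILMN_2321931 separate the lines under both siRNAs, and LIG4, POLM and DCLRE1C ILMN_1754211 lie near the floor.

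Among the end-processing factors, DCLRE1C was higher in TC32 on its brightest probe. DCLRE1C encodes Artemis, the nuclease that DNA-PK activates to open hairpin ends. ILMN_2321931 read 101.2, 110.7 and 111.6 in TC32 with siPRKDC and 109.6, 94.6 and 104.9 in TC32 with siNeg. It read 84.7, 87.8 and 89.1 in HCT116 with siPRKDC and 89.4, 84.5 and 90.4 in HCT116 with siNeg. Every TC32 sample lay above every HCT116 sample, and the siRNAs overlapped within each line.

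The log2 difference of this probe, TC32 minus HCT116, was 0.77 with siNeg (SE 0.11, adjusted p = 1.71e-06), a 1.70-fold difference, and 0.86 with siPRKDC (SE 0.11, adjusted p = 3.56e-07). Its siPRKDC changes were 0.10 in TC32 (95% interval -0.12 to 0.32, adjusted p = 0.487) and 0.02 in HCT116 (95% interval -0.20 to 0.24, adjusted p = 0.948). A dimmer probe, ILMN_1754211, detected on 9 of 12 arrays, differed between the lines by 0.26 with siNeg (adjusted p = 0.089) and by 0.03 with siPRKDC (adjusted p = 0.858). It had a siPRKDC change of -0.28 in TC32 (95% interval -0.56 to -0.01, adjusted p = 0.0947). Without TC32 siNeg replicate 2 it was called both in TC32 (-0.46, adjusted p = 0.0074) and between the lines with siNeg (0.43, adjusted p = 0.00552). The remaining DCLRE1C probe was detected on 0 of 12 arrays.

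The windows of both annotated DCLRE1C starts are shown because the gene was higher in TC32 on its brightest probe. The first, chr10:14954383-14954682 on the - strand, had a GC content of 47% and held 1 GC box. The second, chr10:14954047-14954346 on the - strand, had a GC content of 65.7% and held 2 GC boxes and 1 ETS word. Neither held the GGAA repeat, which 0.0854% of all windows hold, nor the cyclic AMP element word or the NRF1 core.
DCLRE1C start 1: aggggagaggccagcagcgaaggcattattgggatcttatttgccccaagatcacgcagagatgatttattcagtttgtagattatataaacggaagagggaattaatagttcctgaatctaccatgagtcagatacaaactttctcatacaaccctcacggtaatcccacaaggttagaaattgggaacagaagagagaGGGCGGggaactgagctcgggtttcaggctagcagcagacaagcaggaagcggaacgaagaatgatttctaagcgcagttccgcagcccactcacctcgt
DCLRE1C start 2: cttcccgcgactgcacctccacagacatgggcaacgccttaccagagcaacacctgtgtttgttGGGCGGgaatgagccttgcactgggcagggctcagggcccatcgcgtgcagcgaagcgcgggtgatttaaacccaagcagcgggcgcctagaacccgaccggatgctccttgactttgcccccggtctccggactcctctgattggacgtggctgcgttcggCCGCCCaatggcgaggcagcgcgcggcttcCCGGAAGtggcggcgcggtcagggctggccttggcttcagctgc

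The gap-filling polymerases were near the detection limit, although POLM was detected on 11 of 12 arrays. POLM read 75.9, 77.7 and 78.4 in TC32 with siPRKDC and 76.9, 80.8 and 77.5 with siNeg, and between 76.7 and 82.3 across the HCT116 samples. Its changes were -0.16 in TC32 (95% interval -0.36 to 0.05, adjusted p = 0.235) and 0.05 in HCT116 (95% interval -0.16 to 0.25, adjusted p = 0.824). POLL read 71.5 to 78.5 and was detected on 3 of 12 arrays, and it was not tested.

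Between the lines, calls in the set are given beside the share over all kept probes. With 11 probes from 7 genes, a difference between these shares was not tested. With siPRKDC, 6 of 11 were called (54.5%), beside 61.9% of all kept probes. With siNeg, 5 of 11 were called (45.5%), beside 62.0% of all. Values of the lines did not overlap for 6 of 11 under either siRNA, beside 65.0% of all kept probes with siPRKDC and 65.4% with siNeg. The calls shared by both siRNAs were the Ku probes, lower in TC32, and DCLRE1C ILMN_2321931, higher in TC32, from 3 of the 7 measured genes. The other kept DCLRE1C probe was called under neither siRNA. PAXX was called with siPRKDC alone, and the brightest PRKDC probe changed direction.

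**Figure D4:**
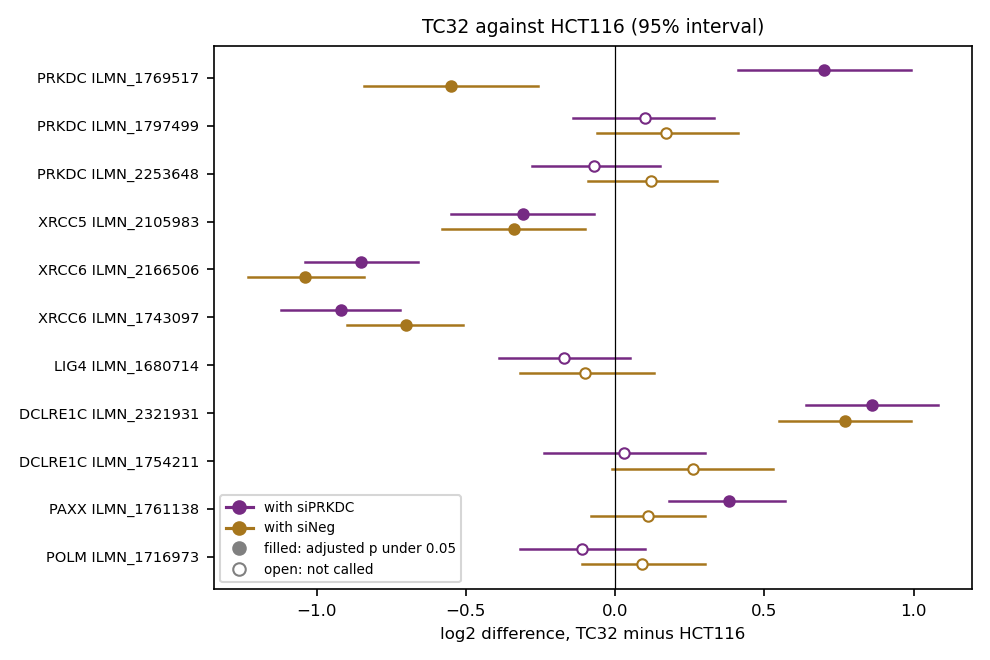
Log2 difference, TC32 minus HCT116, of the 11 kept probes with siPRKDC and with siNeg, with 95% intervals and filled points for adjusted p under 0.05. XRCC5 and XRCC6 lie below 0 and DCLRE1C ILMN_2321931 above 0 under both siRNAs, while the brightest PRKDC probe lies at 0.70 with siPRKDC and -0.55 with siNeg.

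Other genes of break repair were read from their brightest kept probes. In the genes of end processing and accessory end joining, 4 of 8 were measured. In TC32, 1 rose and 1 fell (median 0.17), and in HCT116 none rose and 1 fell (median -0.01). Over all genes, 21.0% were called higher and 20.4% lower in TC32, and 8.32% higher and 8.66% lower in HCT116, with medians of 0.01 and 0.00. APTX, which removes abortive ligation products, rose in TC32 by 0.50 (SE 0.12, adjusted p = 0.00243), and its other probe by 0.30 (adjusted p = 0.0479). TDP1, which cleaves stalled topoisomerase from DNA, fell by 0.53 in TC32 on its brightest probe (adjusted p = 6.01e-04), while its other probes had changes of 0.24 and 0.16 that were not called. The mean of the TDP1 probes changed by -0.05 (adjusted p = 0.702). CYREN, an inhibitor of end joining that binds Ku, fell in HCT116 by 0.54 (SE 0.11, adjusted p = 0.00161). Its change in TC32 was 0.18 (adjusted p = 0.222), and the effects differed by 0.71 (adjusted p = 0.00152).

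Alternative end joining, the route that uses short homologies when the main pathway is not used, had 6 of 7 genes measured. In TC32, 1 rose and 1 fell (median 0.04), beside 21.0% called higher and 20.4% lower over all genes. In HCT116 3 fell and none rose (median -0.29), beside 8.66% lower and 8.32% higher over all genes. POLQ, the polymerase of this route, averaged 5.53 in HCT116 with siPRKDC and 6.19 with siNeg on the log2 scale, and fell by 0.66 (SE 0.12, adjusted p = 4.54e-04). Its change in TC32 was 0.20 (adjusted p = 0.199), and the effects differed by 0.85 (SE 0.16, adjusted p = 5.19e-04). The flap nuclease gene FEN1 fell in HCT116 by 0.53 (SE 0.10, adjusted p = 0.00103) and by 0.48 on its other probe (adjusted p = 0.0015).

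In TC32, FEN1 rose by 0.27 (adjusted p = 0.0422), a call that was lost without TC32 siNeg replicate 1 (adjusted p = 0.0788) or 3 (0.169), without TC32 siPRKDC replicate 1 (0.132) or 2 (0.114), with TC32 fitted alone (0.0631) and with no filter on dim probes (0.0704). The effects on FEN1 differed by 0.80 (SE 0.14, adjusted p = 2.86e-04). The ligase I gene LIG1 fell in HCT116 by 0.42 (adjusted p = 0.00888), though not without HCT116 siNeg replicate 3 (adjusted p = 0.0568). LIG3, a ligase of alternative end joining, fell in TC32 by 0.50 on its brighter probe (adjusted p = 0.00369), while the other had a change of 0.03 (adjusted p = 0.861) and their mean one of -0.23 (adjusted p = 0.0793).

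Of 14 genes of break sensing and the 53BP1 pathway, 12 were measured. In TC32, 2 rose and 4 fell (median 0.03), beside 21.0% called higher and 20.4% lower over all genes. In HCT116 1 rose and 2 fell (median -0.07), beside 8.32% higher and 8.66% lower over all genes. SHLD2, a shieldin subunit that protects ends from resection, rose in TC32 by 0.53 on its brighter probe (adjusted p = 2e-04), while the other had a change of 0.11 (adjusted p = 0.517). MAD2L2, another shieldin subunit, fell in TC32 by 0.38 (adjusted p = 0.00436). Chosen after their values were seen, the other genes that fell in TC32 were MRE11, the nuclease of the break-sensing complex, and the shieldin gene SHLD1. MRE11 had a change of -0.29 on its brightest probe (adjusted p = 0.0267), while its other probes had changes of 0.23 (adjusted p = 0.171) and -0.22 (adjusted p = 0.121) and their mean one of -0.09 (adjusted p = 0.438). The MRE11 call was lost without TC32 siNeg replicate 2 (adjusted p = 0.0546) or 3 (0.0839) or TC32 siPRKDC replicate 2 (0.174), on the authors' deposited log2 values (0.0671) and with TC32 fitted alone (0.0553). The SHLD1 probe was detected on 0 of 3 TC32 siPRKDC arrays and 2 of 3 TC32 siNeg arrays, which gives a fall of at least 1.03-fold (adjusted p = 0.0481). It was kept through HCT116 with siPRKDC, and its call was lost under 11 of 16 alternatives: without TC32 siNeg replicate 1 (adjusted p = 0.055) or 2 (0.274) or any TC32 siPRKDC replicate (0.0721 to 0.131), without background correction (0.0588), with cyclic loess (0.079), with median scaling (0.0835), on the authors' deposited log2 values (0.077), with no filter on dim probes (0.097) and with TC32 fitted alone (0.0777). NBN, a subunit of the complex that senses breaks, rose by 0.42 in TC32 (adjusted p = 0.00146) and by 0.33 in HCT116 (adjusted p = 0.0209). The NBN call in HCT116 was lost without HCT116 siNeg replicate 2 (adjusted p = 0.105), without HCT116 siPRKDC replicate 2 (0.0712) or 3 (0.0602), and with median scaling (0.0914).

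MDC1, the scaffold that binds phosphorylated H2AX, fell by 0.48 in TC32 (adjusted p = 2.7e-04) and by 0.37 in HCT116 (adjusted p = 0.00903). ATM, the break-response kinase, fell in HCT116 by 0.36 on its brighter probe (adjusted p = 0.0248), while the other had a change of -0.06 (adjusted p = 0.846). That call was lost without HCT116 siNeg replicate 1 (adjusted p = 0.102) or 3 (0.0518), without HCT116 siPRKDC replicate 1 (0.165), with no filter on dim probes (0.0564) and with the mean of its probes (0.207).

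**Figure D5:**
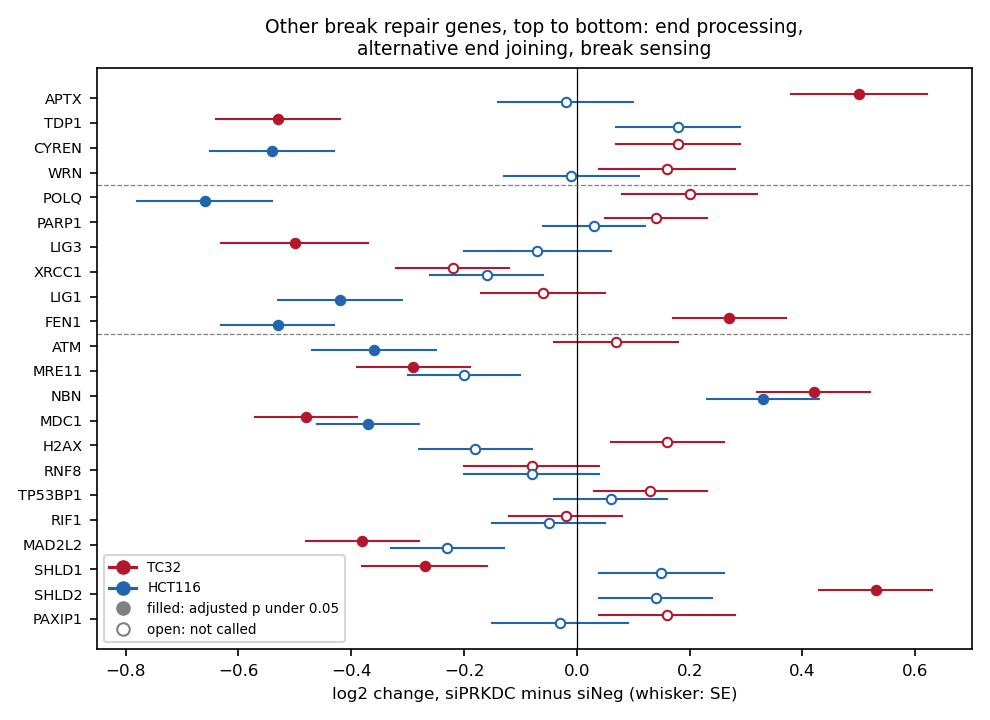
Log2 change, siPRKDC minus siNeg, of the 22 measured genes of the other break repair lists in TC32 and HCT116, each by its brightest kept probe, with SE whiskers and filled points for adjusted p under 0.05; SHLD1 was not detected in TC32 with siPRKDC. POLQ, FEN1 and CYREN lie lower in HCT116 than in TC32, and NBN and MDC1 were called in the same direction in both lines.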

How the data were processed

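RNA from 12 samples was hybridized to Illumina HumanHT-12 v4 arrays. The authors deposited a mean intensity and a detection p-value per probe and array, per the file headers; the intensities are linear, with no correction for background and no scaling between arrays. They also deposited log2 values, which the values themselves show to be quantile normalized within each line separately. The submitters' processing notes name GenomeStudio, R 3.0.2 and lumi. A genome build is not given in the sources used here.

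The intensities went through limma 3.58.1 in R 4.3.3: neqc (background inferred from detection p-values, offset 16, quantile normalization over 12 arrays, log2), then 1 cell-means model of the 4 groups over all 16555 kept probes. limma's moderated test (8 residual and 13.1 prior degrees of freedom) was two-sided, with Benjamini-Hochberg adjustment over all kept probes and calls at an adjusted p below 0.05. A fold against a group with no detecting array is a bound over that group's detection floor. With 3 against 3, an exact permutation test cannot go below 0.1 and was not used. The number of arrays limits the precision. The model was tested on simulated data.

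Probes were named through the platform annotation, updated by gene identifier to RefSeq symbols: 30113 probes had 1 gene, 8 had several, 17201 had none, and 30074 identifiers matched. The named genes are the 10 members with all their probes, up to 4 called members of each other repair list per siRNA comparison, and the 5 genes most like PRKDC. The members, lists and markers were chosen with earlier results of these data known. Replicates within a group correlated at 0.991 to 0.994 and no columns were identical. Alternatives were the background correction, normalization, filter, probe summary, empirical Bayes options, a replicate block, each line alone, the authors' log2 values and leaving out each sample.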

Additional observations from a re-analysis of the deposited data

Results flagged for a closer look

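The siPRKDC effect on the brightest PRKDC probe was not the same size in the lines: TC32 minus HCT116 gave 1.25 in log2 units, with a change of -1.41 in TC32 and -2.66 in HCT116 (interaction in limma, adjusted p = 7.24e-05; all 3 samples of each siPRKDC group lay below their siNeg samples). The dimmer kept probes were at or near the detection floor with siPRKDC in both lines, detected on at most 1 of 3 arrays, and do not measure this difference.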

How the results depend on the processing

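Of 876 recomputed test values for the end-joining probes, 821 kept their direction and their side of the threshold, 12 lost and 9 gained a call, and 34 changed sign, none of these called on either side (smallest adjusted p 0.0754). Of 463 for the other repair genes, 383 were unchanged in this sense and 79 lost a call. A further 1, for TDP1, changed sign from a called value to one not called (adjusted p = 0.888). The brightest PRKDC probe fell in both lines under every alternative that kept it, with -0.75 in TC32 and -1.38 in HCT116 without background correction.

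With the mean of the kept probes of a gene, the difference of the PRKDC effects was 0.33 and the line difference with siNeg -0.08, neither called. The dimmer probes enter this mean. With siNeg, where all arrays detected them, their line differences were 0.17 and 0.12, against -0.55 for the brightest probe. Why the probes differ was not tested. Also with the mean, the siRNA changes of DCLRE1C were -0.09 in TC32 and -0.02 in HCT116, and that of XRCC6 in HCT116 was 0.07. The differences of the effects were -0.02 for XRCC6, -0.07 for DCLRE1C and 0.02 for TDP1. For TDP1 the difference was called on the brightest probe (-0.71, adjusted p = 0.00171) but not with the mean (adjusted p = 0.888). The end-joining count of calls was then 2 in TC32, 1 in HCT116, 0 for the difference of the effects and 3 between the lines with siNeg. With 1 probe per gene it was 2 in TC32 and 1 in HCT116, and 6825 genes were called between the lines with siPRKDC. With a detection p under 0.01 on all 12 arrays, 9439 probes were left, 5 of them in the set and none of PRKDC. The set then had 1 call in TC32 and 0 in HCT116 and for the difference of the effects, and 6263 probes were called between the lines with siPRKDC and 6244 with siNeg. Those counts fell because fewer features were tested. The difference of the effects had 2 calls in the set without background correction, with median scaling and on the authors' deposited log2 values.

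Median scaling moved the median line difference with siNeg over all kept probes to -0.17, against -0.03 with quantile normalization. With it, line differences were -0.20 for PAXX, -0.01 for PRKDC ILMN_1797499 and -0.06 for ILMN_2253648 with siNeg, and -0.01 for DCLRE1C ILMN_1754211 with siPRKDC. The siRNA changes were 0.04 for XRCC6 ILMN_1743097 in TC32, and -0.01 for DCLRE1C ILMN_2321931 and -0.06 for PAXX in HCT116, and the difference of the effects was 0.10 for PRKDC ILMN_1797499, which the detection floor limits. That last value was 0.03 on the authors' log2 values and 0.05 with cyclic loess, which also gave -0.02 for XRCC5 and, between the lines with siPRKDC, 0.02 for PRKDC ILMN_2253648. For none of these was the cause tested.

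Leaving out 1 sample at a time gave sign changes in 11 results, none called. In TC32 the changes ran from -0.04 to 0.05 for XRCC6 ILMN_1743097 and from -0.01 to 0.17 for DCLRE1C ILMN_2321931. In HCT116 they ran from -0.04 to 0.06 and from -0.13 to 0.03 for DCLRE1C ILMN_2321931 and ILMN_1754211 and from -0.02 to 0.10 for PAXX. The differences of the effects ran from -0.16 to 0.06 for PRKDC ILMN_1797499, from -0.06 to 0.14 for XRCC5 and from -0.03 to 0.16 for DCLRE1C ILMN_2321931. Between the lines they ran from -0.16 to 0.01 for LIG4 with siNeg, and with siPRKDC from -0.13 to 0.02 for PRKDC ILMN_2253648 and from -0.06 to 0.12 for DCLRE1C ILMN_1754211.

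Samples that share a replicate number correlated at 0.00 to 0.10 within a line and -0.03 to 0.02 across lines, and 7 of 12 matched their own number best, so the numbers were not taken to pair the samples. With the replicate number as a block, no call of a named gene changed, PRKDC stayed at -1.41 in TC32, -2.66 in HCT116 and 1.25 for the difference, and 6279 and 2447 probes were called in TC32 and HCT116. A block for the slide was not run, as the files used here name no slide. Signal over background also limits the results, as 7 of 18 end-joining probes gave no test.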
